A study of Mus musculus with 6 samples.

Results

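The Wnt ligands, their Frizzled receptors, the R-spondins and a small set of partners were examined in bulk RNA sequencing of mouse distal colon. Members were taken by symbol, with no threshold on their values: every Wnt gene, every numbered Frizzled (Fzd) gene, Rspo1 to Rspo4, and Lrp5, Lrp6, Lgr4, Lgr6, Ror1, Ror2, Ryk, Porcn and Wls. The mouse annotation holds 42 such genes, and 37 of the 21374 genes in the table were among them: 15 of 19 Wnt ligands, 10 of 10 Frizzleds, 3 of 4 R-spondins and all 9 partners. Wnt1, Wnt3a, Wnt8a, Wnt9b and Rspo4 were not analysed here. All 37 passed the filter on low values, and 28 had a mean of at least 10 normalised reads.

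The tissue came from C57BL/6 male mice labelled wild type (3 libraries) or Otud1-/- (3 libraries). Both groups received azoxymethane (AOM), a carcinogen that acts on the colon, by intraperitoneal injection on day 0 at 6 weeks of age. They then had 1.5% dextran sulfate sodium (DSS), which injures the colonic epithelium, for 4 days and water for 14 days, in 3 such cycles. On day 81, at 18 weeks of age, the tumours were cut out of the distal colon and the RNA of the neighbouring tissue was sequenced. The carcinogen and the DSS schedule were thus common to all 6 libraries, which does not mean that the colitis was equal. The labels do not say which part of Otud1 was deleted, nor whether animals and libraries match 1 to 1, so each p-value is relative to the spread among libraries, which may be technical.

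Wnt proteins are secreted, lipid-carrying signals. The acyltransferase Porcn attaches the lipid, the carrier Wls brings the ligand to the cell surface, and a Frizzled together with Lrp5 or Lrp6 receives it, which stabilises beta-catenin in the receiving cell. R-spondins bind Lgr receptors and keep Frizzleds on the surface, while Ror1, Ror2 and Ryk receive Wnts in branches that do not depend on beta-catenin. In the colon this signal maintains the crypt stem cells, and fibroblasts under the crypts are a main source of ligands and R-spondins.

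Libraries held 15300937 to 19406407 reads assigned to genes. A normalised read count is the number of reads of a gene divided by the size factor of its library. Otud1 itself, a deubiquitinase gene, was not lower in the libraries labelled Otud1-/-: it had 45.1 to 111 normalised reads under the wild type label and 141 to 208 under the Otud1-/- label (limma, adjusted p = 0.0934), so all directions here are between the libraries as labelled. Markers of colonic epithelium, fibroblasts, smooth muscle, endothelium, enteric nerve and leukocytes were all detected. The summed level of 15 epithelial markers was 495276 to 584597 under the wild type label and 315874 to 467030 under the Otud1-/- label, and that of 15 smooth muscle markers was 46200.4 to 50410.4 against 75711.6 to 151565. The summed level of 14 leukocyte markers was 30623.5 to 46926.4 against 13763.1 to 24906.2, and that of 11 endothelial markers, which include the target gene Prox1, 2148.5 to 2869.4 against 3249.5 to 5498.2. Without Prox1 the other 10 endothelial markers summed to 1809.0 to 2518.9 against 2059.2 to 2855.1, so the labels overlapped. Bulk values cannot tell fewer cells of a type from less RNA per cell.

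Fzd2 and Ror2 rose in the libraries labelled Otud1-/-, each by more than 2-fold, and no other member passed the test. The test was limma applied to log2(normalised read count + 1), with Benjamini-Hochberg adjustment over all 21281 genes tested, and 0.05 was the limit on the adjusted p for a call. By this rule 2 of 37 members were called, both higher, where 0.949% of all tested genes were called in either direction and 0.282% as higher and 0.667% as lower. Scaling to total reads also called these 2, of 1.95% of all genes, and edgeR called none of the members, of 0.479%. Changes below are Otud1-/- minus wild type on that log2 scale, with limma's standard error (SE). The added 1 draws most changes of genes with few reads towards 0, but a mean of logs gives 1 very low library much weight. For Lgr6 and Wnt10a limma gave 3.09 and 2.55, where edgeR gave 2.16 and 2.07. The genotypes did not overlap in 15 members, 13 higher and 2 lower in Otud1-/-, against 26.3% of all tested genes, 13% higher and 13.3% lower.

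**Figure D1:**
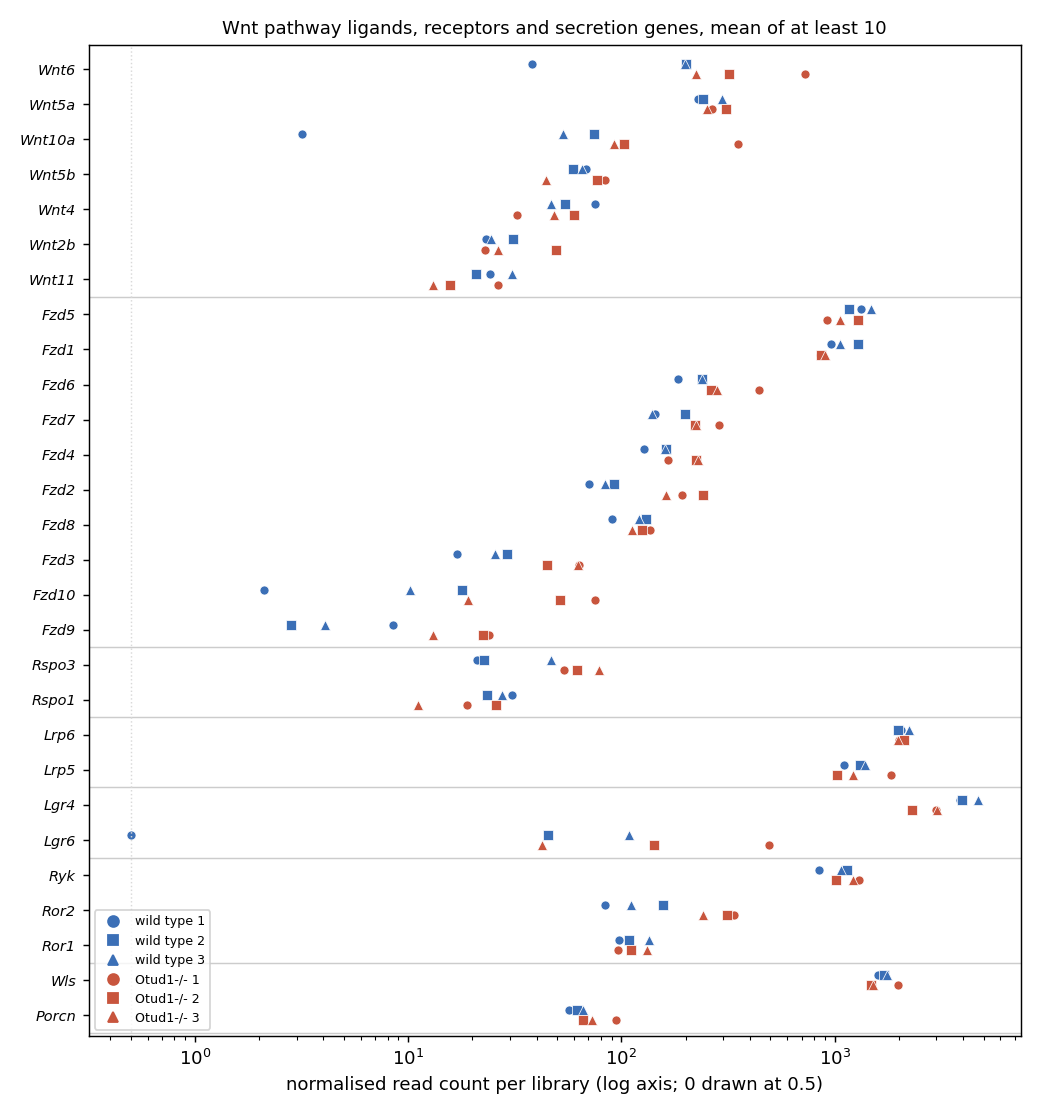
Normalised read count (log axis, 0 drawn at 0.5) of the 28 members with a mean of at least 10, by role; each point is 1 library, wild type in blue and Otud1-/- in red, and circles, squares and triangles are replicates 1, 2 and 3. The red points of Fzd2 and Ror2 lie to the right of all blue ones, and wild type 1 is far to the left for Wnt6, Wnt10a, Fzd10 and Lgr6.

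The Frizzled receptors were the role with the most separated genes: 7 of 10 had every Otud1-/- library above every wild type library and 1 had every one below. Over all tested genes these shares were 13% and 13.3%. Changes were positive for 8 of 10 (10 when scaled to the epithelial markers and 7 with quantile normalisation), with a median of 0.58 against 0.02 over all tested genes. When libraries were scaled by total reads the median of all genes moved to 0.22, and when scaled by the epithelial markers to 0.37. The Frizzled median stood 0.57 above it in each. Both scalings use 1 factor per library and shift all genes by nearly the same amount, so this distance could hardly change. Without wild type 1 and Otud1-/- 1 together the median was 0.45 against 0.01.

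Fzd2 (ENSMUSG00000050288.6, chromosome 11, 102604396 to 102608058 on the plus strand, GRCm38) encodes a receptor used in both the beta-catenin and the Wnt5a branches. Its normalised read counts in wild type 1, 2 and 3 were 70.7, 92.2 and 83.6, and those in Otud1-/- 1, 2 and 3 were 192, 242 and 161. The lowest Otud1-/- library stood well above the highest wild type library. The mean went from 82.2 ± 10.8 to 198 ± 40.6 (SD, n = 3), a change of 1.25 ± 0.23 SE (limma, adjusted p = 0.0454). Omitting wild type 1, 2 or 3 ended the call (adjusted p by limma of 0.142, 0.132 and 0.173), as did omitting Otud1-/- 2 or 3 (0.0639 and 0.065). It was kept without Otud1-/- 1 (0.0477), and the change lay between 1.10 and 1.39 in these 6 fits.

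Fzd3 and Fzd9, with low counts, came next in order of p. Fzd3, known from planar polarity and axon guidance, had 16.9, 29.2 and 25.5 normalised reads under the wild type label and 63.1, 45 and 62.6 under the Otud1-/- label (change 1.24 ± 0.32 SE, limma, adjusted p = 0.0969). Fzd9 had 8.44, 2.82 and 4.08 against 23.9, 22.5 and 13.1 (1.83 ± 0.50 SE, adjusted p = 0.106). The genotypes were apart in each of these genes, but at such counts a few reads move the fold. Fzd10, a receptor often raised in colorectal tumours, had 2.11, 17.9 and 10.2 against 75.1, 51.7 and 19.2 (2.32 ± 0.74 SE, adjusted p = 0.154). Its gap between the labels was narrow, 17.9 against 19.2, although the extremes were far apart, and the change was 1.17 without wild type 1 and Otud1-/- 1. Fzd3 and Fzd10 passed with DESeq2 on the recovered reads (adjusted p = 0.024 and 0.0215), which called 8.05% of the genes it adjusted, and neither passed with edgeR (0.108 and 0.141).

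Fzd4, Fzd6 and Fzd7 had smaller changes, with separate labels, and none was called. Fzd7, a receptor of intestinal stem cells, had 143, 199 and 139 normalised reads against 288, 221 and 224 (0.61 ± 0.21 SE, adjusted p = 0.161). Fzd6 had 184 to 240 against 262 to 442 (0.54 ± 0.22 SE, adjusted p = 0.227), and its change was 0.18 without wild type 1 and Otud1-/- 1. Fzd4, the Norrin receptor of endothelium, had 128 to 162 against 166 to 229 (0.45 ± 0.20 SE, adjusted p = 0.264). Fzd8 overlapped, with 90.7 to 131 against 112 to 137 (0.14 ± 0.22 SE, adjusted p = 0.772).

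The most abundant Frizzleds were on the other side. Fzd1 had 963, 1285 and 1055 normalised reads under the wild type label and 851, 862 and 906 under the Otud1-/- label (-0.32 ± 0.13 SE, limma, adjusted p = 0.213). Each Otud1-/- library was below each wild type library, by a small margin. Fzd5, the main Frizzled of intestinal epithelium, had 1325, 1163 and 1475 against 922, 1293 and 1065, with overlap (-0.28 ± 0.15 SE, adjusted p = 0.339). Scaled to the epithelium list, both changes were slightly positive, 0.04 for Fzd1 and 0.08 for Fzd5, where the median of all genes was 0.37. Annotated exons of Fzd5 share 17.8% of their bases with a transcript on the opposite strand, and the strand setting of the counting is not given in the sources used here.

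Expressed per kilobase of annotated exon, which allows genes to be compared, the Frizzleds summed to overlapping levels under both labels. The shares of some single genes, Fzd1 and Fzd2 among them, were apart. The summed level was 606 ± 50.4 normalised reads per kilobase in wild type and 622 ± 27.6 in Otud1-/- (SD, n = 3). Fzd1 made up 43.2% ± 3.52 of it in wild type and 33.5% ± 2.61 in Otud1-/-. Fzd5 made up 31.8% ± 5.03 and 25.4% ± 3.94, and its shares overlapped between the labels. Fzd2 went the other way, from 3.69% ± 0.19 to 8.67% ± 1.43. By the wild type mean the order was Fzd1, Fzd5, Fzd6, Fzd7, Fzd2, Fzd4, Fzd8, Fzd10, Fzd9 and Fzd3. The Otud1-/- means gave the same order except that Fzd2 (54.2) and Fzd7 (53.9) changed places, closer to each other than their spread between libraries. In wild type it was Fzd2 (22.4) and Fzd4 (22.3) that differed by less than this spread. These shares describe the libraries and were not tested.

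**Figure D2:**
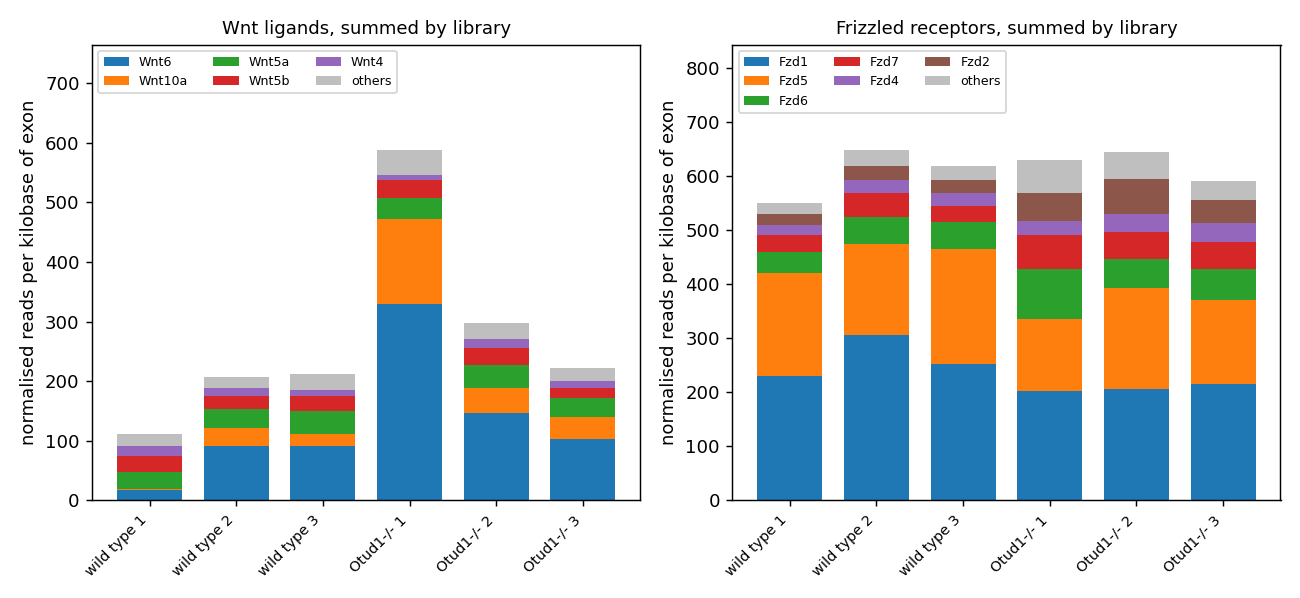
Normalised reads per kilobase of exon, summed over the 15 Wnt ligands (left) and the 10 Frizzleds (right) in each library; bar heights start at 0 and colours mark genes. The Frizzled bars are of like height (550 to 648) with a wider Fzd2 band under Otud1-/-, whereas the ligand bars run from 111 to 588 with most of the difference in Wnt6 and Wnt10a.

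Ror2 (ENSMUSG00000021464.14, chromosome 13, 53109312 to 53286124 on the minus strand, GRCm38) encodes a receptor tyrosine kinase that receives Wnt5a. It had 83.3, 156 and 111 normalised reads under the wild type label and 338, 314 and 241 under the Otud1-/- label. The labels were separated by a gap of 156 to 241. The mean went from 117 ± 36.7 to 298 ± 50.4 (SD, n = 3), a change of 1.37 ± 0.25 SE (limma, adjusted p = 0.0467). The call was lost in each of the 6 fits without a single library, with adjusted p from 0.0572 without Otud1-/- 1 to 0.178 without wild type 3, and the change then lay between 1.16 and 1.60. The related Ror1 had 97.0, 108 and 135 against 96.4, 111 and 132, a change of 0.00 ± 0.23 SE (adjusted p = 0.998). Ryk, a receptor without kinase activity, had 845, 1147 and 1072 against 1306, 1016 and 1220.1, with overlap (0.21 ± 0.15 SE, adjusted p = 0.463).

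Smooth muscle markers were, like Fzd2 and Ror2, higher under the Otud1-/- label, but the order of its libraries differed. The summed level of these markers in Otud1-/- 1, 2 and 3 was 75711.6, 151564.8 and 112064.2. It was lowest in Otud1-/- 1, where Ror2 was highest. Fzd2 was, like this sum, highest in Otud1-/- 2, but it was lowest in Otud1-/- 3. Of 15 smooth muscle markers, 5 were called, all higher, and 14 had every Otud1-/- library above every wild type library (median change 1.12). Of 15 fibroblast markers 1 was called, the matrix gene Fn1 (1.07 ± 0.17 SE, adjusted p = 0.0349), with a median of 0.02 and a summed level of 22136.8 to 25964.2 against 25718.2 to 33915.2. Of 9 markers of Cd34 and Grem1 fibroblasts 1 was called, the BMP antagonist Grem1 (568, 685 and 535 against 1144, 1739 and 1915; adjusted p = 0.0262). That list had 6 positive and 3 negative changes (median 0.29), C3 and Dpp4 had every Otud1-/- library below every wild type library, and its summed level overlapped, 5124 to 7490.0 against 3791.5 to 6202.2. Of 9 markers of subepithelial Foxl1 fibroblasts 0 were called, with 7 positive and 2 negative changes (median 0.63). In 4 of these markers every Otud1-/- library was above every wild type library, as in 13% of all tested genes. The summed level of this list overlapped, 2210.7 to 2546.9 against 2077.8 to 4656.8. No marker of these lists was at 0 in all libraries. Their part in the values of Fzd2 and Ror2 was not tested.

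Promoters of members were searched for the words that TCF/LEF factors, the nuclear partners of beta-catenin, bind: the word CTTTGAA, its variant CTTTGAT, its variant CTTTGTA or its variant CTTTGTT, on both strands, in the 250 bases before the RefSeq start (GRCm38.p6). Of the 37 members 25 had a window. At least 1 word stood in 3 of their 28 windows (10.7%), those of Fzd7, Wnt11 and Wnt5b, against 14.8% of all 32851 windows, and the median GC content was 66.8% against 52.4%. Windows are shown 5′ to 3′ on the strand of the gene. Ror2 is the called gene with a window (chr13:53286125-53286374, minus). Wnt6 is the ligand with the highest level per kilobase of exon in all libraries but wild type 1 (chr1:74771642-74771891, plus). Fzd7 is a separated Frizzled with a word (chr1:59481897-59482146, plus). Capitals mark the word, read on the opposite strand in Fzd7, 130 bases before the start.
Ror2: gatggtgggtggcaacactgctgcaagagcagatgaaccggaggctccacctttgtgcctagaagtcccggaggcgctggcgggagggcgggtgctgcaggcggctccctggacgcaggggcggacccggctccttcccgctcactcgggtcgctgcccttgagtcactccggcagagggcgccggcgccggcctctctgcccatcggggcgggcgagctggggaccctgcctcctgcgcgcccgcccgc
Wnt6: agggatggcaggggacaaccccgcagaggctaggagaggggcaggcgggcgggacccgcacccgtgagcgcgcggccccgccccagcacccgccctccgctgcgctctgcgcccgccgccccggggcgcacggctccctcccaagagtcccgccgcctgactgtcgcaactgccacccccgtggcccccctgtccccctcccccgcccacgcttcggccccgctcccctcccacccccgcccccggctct
Fzd7: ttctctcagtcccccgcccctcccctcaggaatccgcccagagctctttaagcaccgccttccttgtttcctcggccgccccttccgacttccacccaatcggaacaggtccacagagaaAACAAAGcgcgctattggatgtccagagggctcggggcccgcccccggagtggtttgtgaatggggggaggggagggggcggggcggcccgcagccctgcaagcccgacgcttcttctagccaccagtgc
The Ror2 and Wnt6 windows hold none of these words, which says nothing about binding elsewhere.

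Among the ligands no gene was called, and Wnt6 and Wnt10a spread widely over the libraries. These are neighbours on chromosome 1, both on the plus strand, with 6193 bases and no annotated gene between them. Wnt6 (74771892 to 74785322) had 38.0, 201 and 198 normalised reads under the wild type label and 723, 321 and 225 under the Otud1-/- label (1.69 ± 0.81 SE, limma, adjusted p = 0.331). Wnt10a (74791516 to 74804179) had 3.16, 74.3 and 53.0 against 352, 102 and 91.8 (2.55 ± 1.28 SE, adjusted p = 0.351). In both genes the Otud1-/- libraries were all above the wild type ones, wild type 1 was the lowest and Otud1-/- 1 the highest. Without those 2 libraries the changes were 0.43 for Wnt6 and 0.62 for Wnt10a.

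Per kilobase, the mean over the wild type libraries was 66.5 normalised reads for Wnt6, 32.8 for Wnt5a, 24.3 for Wnt5b, 17.6 for Wnt10a and 14.0 for Wnt4. Over the Otud1-/- libraries it was 193 for Wnt6, 73.8 for Wnt10a, 35.4 for Wnt5a, 25.7 for Wnt5b and 11.2 for Wnt4. Wnt6 had the highest level of any ligand in 5 of the 6 libraries, and in wild type 1 it (17.3) was below Wnt5a (29.4), Wnt5b (25.8) and Wnt4 (17.9). The summed ligand level of wild type 1, 2 and 3 was 111, 208 and 212, and that of Otud1-/- 1, 2 and 3 was 588, 298 and 221. Wnt6 and Wnt10a together made up 16.8%, 58.7% and 52.8% of it in wild type and 80.3%, 63.1% and 63.2% in Otud1-/-. The other ligands summed to 92.3, 85.8 and 100 against 116, 110 and 81.6 normalised reads per kilobase, so the labels overlapped once those 2 genes were set aside.

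The other 5 ligands with a mean of at least 10 overlapped between the labels. Wnt5a, the main ligand of Ror2, had 230, 242 and 298 normalised reads against 267, 309 and 253 (0.11 ± 0.17 SE, adjusted p = 0.757). Wnt5b had 59.3 to 68.6 against 44.4 to 83.6, and Wnt2b, a fibroblast ligand that supports crypts, 23.2 to 31.0 against 23.0 to 49.5. Wnt4 had 46.9 to 74.9 against 32.4 to 59.6 (-0.34 ± 0.32 SE, adjusted p = 0.599). Wnt11 had 24.3, 20.7 and 30.6 against 26.5, 15.7 and 13.1 (-0.47 ± 0.38 SE, adjusted p = 0.531). None of these 5 was called.

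Of the R-spondins, Rspo3 and Rspo1 were measured at low levels and in opposite order. Rspo3, the R-spondin of crypt-base fibroblasts, had 21.1, 22.6 and 46.9 normalised reads under the wild type label and 53.8, 61.9 and 78.7 under the Otud1-/- label (1.15 ± 0.36 SE, limma, adjusted p = 0.138). Its labels did not overlap, although wild type 3 was close to Otud1-/- 1. Rspo1 had 30.6, 23.5 and 27.5 against 18.8, 25.9 and 11.1, with overlap (-0.59 ± 0.39 SE, adjusted p = 0.431). Rspo3 made up 38.3% ± 11.0 of the R-spondin level per kilobase in wild type and 66.4% ± 10.3 in Otud1-/- (SD, n = 3). Neither gene was called with edgeR or DESeq2, and Rspo3 passed after scaling to the epithelium list (1.51, adjusted p = 0.0197), where 6.41% of all genes did. Exons of Rspo3 share 13.1% of their bases with an antisense gene, and those of Wnt5a, Wnt11, Wnt7b and Fzd6 share fewer with a gene on the other strand, so these values are uncertain to that extent.

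Of the R-spondin receptors, the abundant Lgr4 had a lower mean and the rare Lgr6 had a higher mean in the libraries labelled Otud1-/-, and neither was called. Lgr4 (chromosome 2, 109917647 to 110014257), expressed through the crypt epithelium, had 3890.1, 3976 and 4715 normalised reads against 3005, 2307 and 3024. The 3 Otud1-/- libraries were the 3 lowest. The mean went from 4194 ± 454 to 2779 ± 408 (SD, n = 3), a change of -0.60 ± 0.14 SE (limma, adjusted p = 0.0803), which was not called. It passed with DESeq2 (-0.59, adjusted p = 0.0165), which called 8.05% of the genes it adjusted, and not with edgeR (adjusted p = 0.106). After scaling to the epithelium list the change of Lgr4 was -0.23 (limma, adjusted p = 0.472), where the median of all genes moved from 0.02 to 0.37. In these libraries 13 of 15 epithelial markers had negative changes, and their part in the value of Lgr4 was not tested. Lgr6, which marks rare stem cells in several epithelia, had 0, 45.1 and 108 against 494, 143 and 42.4 (3.09 ± 2.10 SE, adjusted p = 0.486). Its labels overlapped, and the change was 0.16 without wild type 1 and Otud1-/- 1.

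The co-receptors Lrp5 and Lrp6 and the secretion genes Wls and Porcn had changes between -0.04 and 0.32, and none was called. The signs of Lrp6 and Wls turned positive when libraries were scaled by total reads (0.17 each), where the median of all genes was 0.22. Lrp6 had 2058, 1981 and 2232 normalised reads against 2005, 2122 and 1980.0 (-0.04 ± 0.10 SE, limma, adjusted p = 0.88). Lrp5 had 1105, 1318 and 1390 against 1833, 1023 and 1222 (0.06 ± 0.21 SE, adjusted p = 0.907), with Otud1-/- 1 above all others. Wls had 1599, 1712 and 1753 against 1984, 1483 and 1507 (-0.04 ± 0.13 SE, adjusted p = 0.907). Porcn had 57.0, 62.1 and 66.3 against 94.7, 66.4 and 72.7 (0.32 ± 0.25 SE, adjusted p = 0.513), and its labels were apart by less than 1 read. Per kilobase, Lrp6 (151), Lrp5 (135) and Wls (190) stood near Fzd5 (175), below Fzd1 (235) and Ryk (243), and far below Lgr4 (592).

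**Figure D3:**
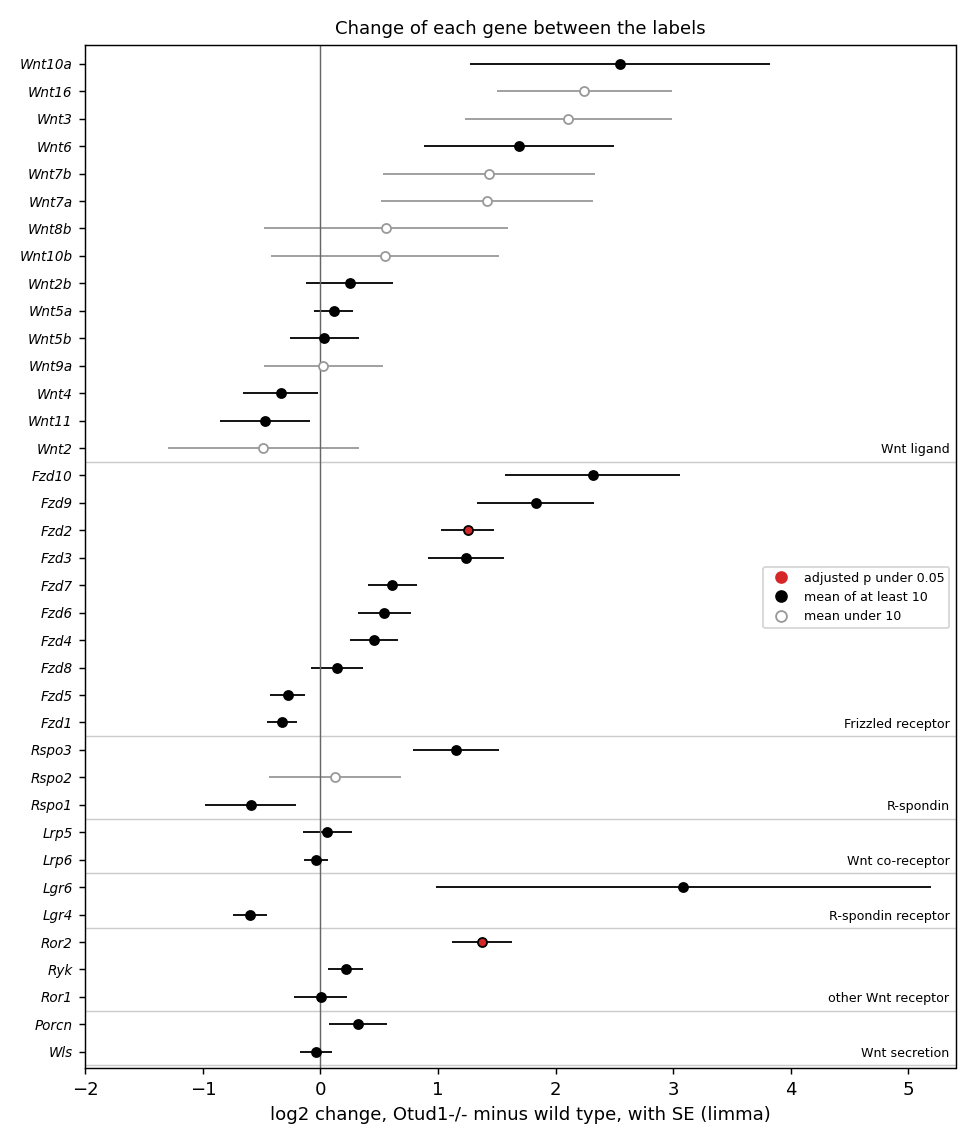
Change of each of the 37 members on the log2 scale, Otud1-/- minus wild type, with limma's SE as bars; red points passed the test and open grey points have a mean under 10. Fzd2 (1.25) and Ror2 (1.37) combine a sizeable change with a short bar, while Wnt10a (2.55) and Lgr6 (3.09) have larger changes with long bars.

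The remaining 9 members had means under 10 and are given apart. Wnt3 had 0, 1.88 and 9.18 normalised reads under the wild type label and 28.2, 9 and 7.06 under the Otud1-/- label. Wnt16 had 0, 3.76 and 5.10 against 16.2, 7.88 and 19.2 and was the 1 member of these whose labels did not overlap (adjusted p = 0.154). Wnt9a ran from 5.05 to 15.4, Wnt8b from 0 to 17.1, Wnt2 from 0.94 to 12.7, Wnt7b from 0 to 16.2, Wnt10b from 0 to 5.12, Wnt7a from 0 to 5.97 and Rspo2 from 3.06 to 7.52 over the 6 libraries. Of these 9 genes 4 were lowest in wild type 1 alone, 2 more were at 0 there and in at least 1 other library, and 6 were highest in Otud1-/- 1. None of the 9 was called at these depths.

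The order of libraries was shared by many members. Of the 28 with a mean of at least 10, 14 were lowest in wild type 1 and 15 highest in Otud1-/- 1, against 20.9% and 25.9% of all tested genes with such a mean. In this set 12 members had every Otud1-/- library above every wild type library, where 14.1% of genes with such a mean did, and 2 had every one below (15.7%). The median change of all 37 members was 0.32 against 0.02 over all tested genes, and 0.09 against 0.01 without wild type 1 and Otud1-/- 1. Those 2 libraries also held the lowest and the highest summed level of the target gene list (4074 and 31208) and of 11 squamous epithelium markers (210 and 1853), none of which was called. Krt14 and Krt13 carried most of the latter in Otud1-/- 1, and without them the sums were 115.0 and 325.1. Of the 11 markers 7 were lowest in wild type 1 and 9 highest in Otud1-/- 1, whereas Dsc3 was highest in wild type 1, and Krt10, Col17a1 and Dsg3 had negative changes. The part of either in the values of the ligands was not tested.

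**Figure D4:**
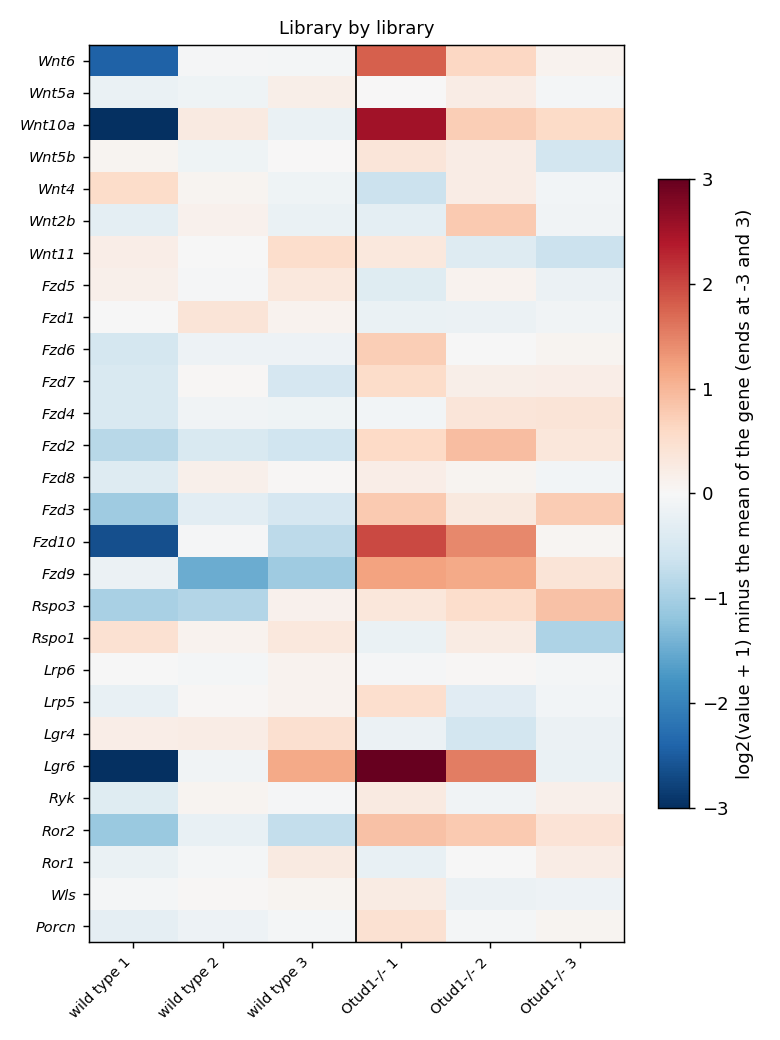
Log2 of the normalised read count plus 1, minus the mean of the gene over the 6 libraries, for the 28 members with a mean of at least 10; colours end at -3 and 3. Wild type 1 is darkest blue and Otud1-/- 1 darkest red for Wnt6, Wnt10a, Fzd10 and Lgr6, whereas Fzd2 and Ror2 are blue in all 3 wild type libraries and red in all 3 Otud1-/- libraries.

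Ndp, Cer1, Dkk1 and Dkk4 were not analysed here. Of 100 other tested genes of the pathway none was called by limma (31 had an unadjusted p under 0.05, as did 19.5% of all tested genes). Of these 100 edgeR called 0 and DESeq2 16, where they called 0.479% and 8.05% of all genes they adjusted. Secreted Wnt inhibitors had positive changes in 10 of 10. In 7 every Otud1-/- library was above every wild type library, as in 13% of all tested genes. Dkk3 (0.85, adjusted p = 0.0724) and Frzb (0.99, adjusted p = 0.109) had the smallest p. Feedback and target genes were positive in 16 of 16 (median 1.69) and separated in 11, all higher, beside the same 13%. Their smallest p by limma were those of Myc (0.71, adjusted p = 0.108) and the inhibitor Nkd2 (0.91, adjusted p = 0.121). This direction was known before these lists were drawn up. In the other lists signs were mixed. The destruction complex and transducers had 11 positive and 6 negative, with Csnk1e at 0.78 and Amer1 at 0.47, and beta-catenin and its nuclear partners 10 and 6, with the effector Tcf7l2 at -0.47 and Pygo1 at 1.03. The planar polarity and calcium branch, downstream of Ror2, had 16 positive and 10 negative, with Camk2d at -0.48 and Nfatc4 at 0.80. Surface cofactors had 9 and 6, with Gpc4 at -0.37 and Lypd6 at 1.59.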

How the data were processed

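The authors deposited a normalised signal per gene for 6 libraries. Every value in a column was a whole multiple of its smallest value (100% within 0.001 of a read), so whole reads could be recovered as reads divided by a size factor. The submitters' processing notes name the build mm10. The sources used here do not name an aligner, a counter, a strand setting or an annotation. Gene IDs were matched without version to GENCODE vM21 (GRCm38): 21336 of 21374 matched. Genes with at least 1 normalised read in at least 3 libraries were tested (21281; 93 were left out) with limma 3.58.1 in R 4.3.3 (trend and robust) on log2(value + 1), with genotype as the only term. The labels give no batch. edgeR 4.0.16 and DESeq2 1.42.0 on the recovered reads, other pseudocounts, filters and scalings, a replicate block and the omission of libraries were alternatives. Levels per kilobase use the union of annotated exons. In simulated data of 3 against 3 libraries (21215 genes) limma recovered 44% of 2-fold and 75% of 4-fold changes, and 11.2% of its calls were unchanged genes. That share was 9.3% for edgeR and 31.8% for DESeq2. The members, gene lists, tests and alternatives were chosen with earlier results of these data known. Members that were called, the 3 with the smallest p and the 2 highest per kilobase in each role, and the 2 smallest p of each other list were named with values, and every other member by its range. Libraries held 15300937 to 19406407 reads.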

Additional observations from a re-analysis of the deposited data

How the results depend on the processing

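Whether Fzd2 and Ror2 pass depends on the setting, while their changes stayed positive in all 18 alternatives (1.10 to 1.61 for Fzd2 and 1.06 to 1.74 for Ror2). Some of these could not move the changes, which stayed 1.25 and 1.37 under other filters, without trend and robust fitting and with a replicate block. As the labels did not overlap in either gene, leaving out libraries could not turn a sign. Against 2 called members and 202 called genes, 0 members (0 higher) were called at a mean of at least 5 (122 genes), with a pseudocount of 0.1 (118), after quantile normalisation, in limma with neither trend nor robust fitting (0 genes, against 3499 at an unadjusted p under 0.05) or with edgeR (102). At an unadjusted p under 0.05 these settings held 9 to 13 members and 3476 to 4191 of all genes. In the main fit that limit held 12 members and 19.5% of all tested genes. Scaling to total reads gave 416 genes, 1 pathway gene and a member median of 0.52. Scaling to the epithelium list gave 1365 genes, 8 members, all higher, 13 pathway genes and a median of 0.68. DESeq2 gave 1414 genes, 5 members (4 higher, 1 lower) and 16 pathway genes. Leaving out 1 library gave 10 to 351 genes, 0 to 1 members, 0 to 3 pathway genes and a median of 0.17 to 0.43, with 10 genes without wild type 3 and 351 without Otud1-/- 2. Without wild type 1 and Otud1-/- 1 together it was 393 genes, 4 pathway genes and a median of 0.0858. Fzd2 and Ror2 were called in that fit, just under the limit (limma, adjusted p = 0.04804 and 0.04997). Both were also called with no filter on low values and with a pseudocount of 0.5.

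Changes near 0 turned sign. Under total reads, the epithelium list and quantile normalisation Lrp6 was 0.17, 0.33 and 0.13, and Wls 0.17, 0.33 and 0.10. With the epithelium list Fzd5 was 0.0846 and Fzd1 0.0397. Ror1 was -0.14 after quantile normalisation and -0.0011 with DESeq2. With 1 library left out Lrp6 ran from -0.0751 to 0.0111, Wls from -0.1742 to 0.0358, Ror1 from -0.1137 to 0.1325 and Lrp5 from -0.18 to 0.2425, and Lrp5 was -0.28 without wild type 1 and Otud1-/- 1. The cause of the turns in the settings other than these 2 scalings was not tested.

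Libraries with the same number did not deviate together (correlations of -0.264, -0.1 and -0.088), so the numbers were not used to pair them. With a replicate block 18 genes and 0 members were called.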
